A study of Mus musculus with 4 samples.

Results

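The genes described here are the BCL2 family, the caspases, the death receptors and the proteins that act between them, measured in the ventricle of mice with and without extra serum response factor (SRF). A list of 36 genes was read from the platform annotation, taking probe sets that carry exactly 1 gene symbol and, for each gene, the probe set with the highest mean over all 4 arrays. 31 of the 36 genes had such a probe set, of 8251 genes so named on the array, and 22 of the 31 were bright enough to be tested. The other 9 were dim (Bid, Casp1, Casp6, Casp8, Casp12, Apaf1, Fas, Fasl and Diablo) and are given by their signals. Bax, Trp53, Ripk1 and Tnfrsf12a are not analysed here, and Bnip3l is named on the array only together with its pseudogene, so that it has no value of its own. RNA came from ventricles of 6-month-old mice, with 2 arrays from non-transgenic animals and 2 from animals with a moderate, heart-restricted excess of SRF, a transcription factor of muscle and cytoskeletal genes. The labels name neither the promoter of the transgene nor the strain or sex, Srf itself is not analysed here, and separate animals are not stated, so the errors describe the spread between these arrays and may be technical.

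In the mitochondrial route to apoptosis, BH3-only proteins such as BID and BIM sense damage and set free BAX and BAK, which open the outer mitochondrial membrane unless BCL2, BCL-XL or MCL1 hold them back. Cytochrome c and other proteins then leave the mitochondria, APAF1 assembles with caspase-9, and effector caspases cut the cell apart. In the other route, FAS and TNF receptors at the surface recruit FADD and caspase-8, which FLIP (Cflar) restrains. Cardiomyocytes scarcely divide, and both routes have been studied in them as ways by which a stressed or overloaded heart loses cells.

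None of the 22 tested genes differed between transgenic and non-transgenic ventricle past the threshold, a p of 0.05 from limma after Benjamini-Hochberg (BH) adjustment over 7453 probe sets. Over all tested probe sets, 4.07% were called higher and 3.86% lower (303 and 288); with each array centred on its median these counts were 397 and 197. At an unadjusted p below 0.05 there were 2 of the 22 (9.09%), Bnip3 and Tnfrsf1a, against 24.2% of all probe sets. The groups did not overlap for 11 of the 22 genes, 6 of them higher and 5 lower in the transgenic arrays, beside 55.9% of all tested probe sets. Changes are given as log2(signal + 9) of transgenic minus non-transgenic arrays, where 9 keeps very low signals from giving large ratios. The median change was -0.03 over the 22 genes and -0.01 over all probe sets, and the median absolute change was 0.14 against 0.225. The 95% interval of the change lay inside a 2-fold change in either direction for 20 of the 22 genes, and inside a 1.5-fold change for 12. Over all probe sets these shares were 82.2% and 38.0%, against 90.9% and 54.5% for the 22 genes. The exceptions at 2-fold were Bik and Bad. These shares hold for the brightest probe set of each gene only. Dimmer tested probe sets had intervals reaching past 2-fold for Casp2 (-1.105 to 0.069), Tnfrsf1a (-1.063 to -0.043) and Casp9 (-1.424 to 0.31).

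**Figure D1:**
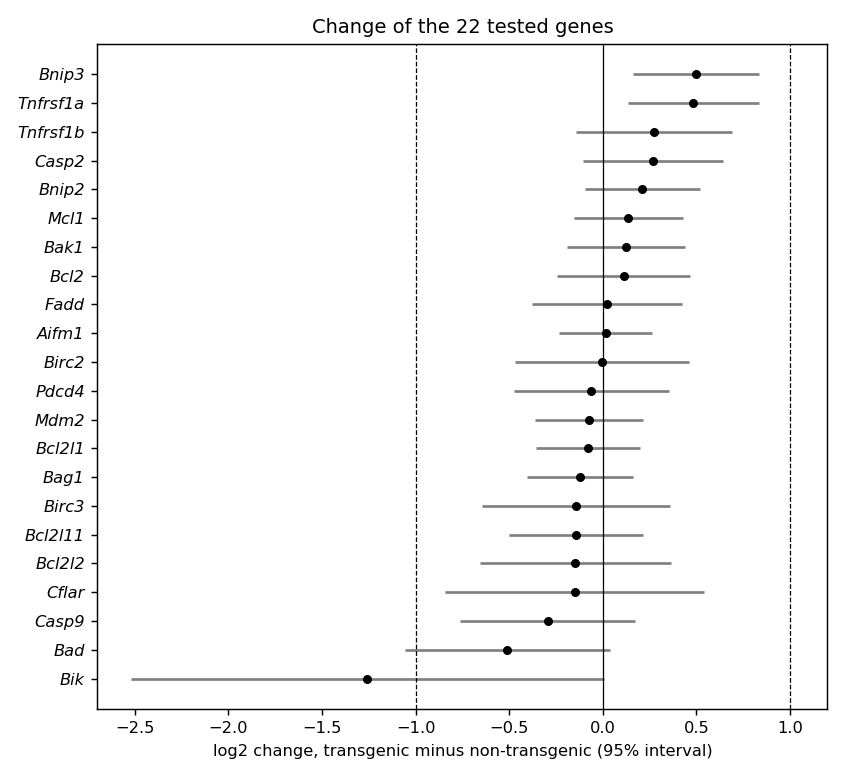
Change of each of the 22 tested genes (y axis) as log2(signal + 9), transgenic minus non-transgenic (x axis), with the 95% interval of limma as a bar; dashed lines mark a 2-fold change either way. On the brightest probe set of each gene, the interval excludes 0 only for Bnip3 (0.16 to 0.84) and Tnfrsf1a (0.13 to 0.84). Neither passed after adjustment, and the interval is widest for Bik.

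The deposited arrays had similar levels, with median signals of 49.0 to 53.9, and log2 signals correlated at 0.973 and 0.981 between the arrays of a group (across probe sets, which are not independent). The median absolute difference between the replicates of a group was 0.15 in both groups for the 22 genes. Their median absolute change between groups was 0.14. Over all tested probe sets the differences were 0.182 (non-transgenic) and 0.155 (transgenic), beside a median absolute change of 0.225. Replicate differences are between single arrays and changes between means of 2 arrays, so their sizes are not directly comparable. The cardiomyocyte markers fitted the tissue label, since 12 of 12 measured were bright enough to be tested. Marker genes of several cell types differed between the groups. The summed signal of 18 macrophage and monocyte genes came to 2929 and 3151 in non-transgenic and to 4678 and 4772 in transgenic ventricle, with 6 of 11 tested genes higher and 7 dim, among them Adgre1, Ptprc and Itgam. Fibroblast genes (11 of 15 tested higher) summed to 9258 and 9175 against 15031 and 14711. In signal that rise was largest in Dcn (3204 and 3177 against 4665 and 4569) and Mgp (842 and 993 against 2299 and 2216). Pdgfra (523 and 391 against 332 and 298, no overlap) and Ddr2 had negative changes. Cardiomyocyte genes (7 of 12 lower) summed to 93192 and 91408 against 73341 and 74269. Smooth muscle genes (2 of 9 tested higher) summed to 2275 and 2319.9 against 3749.6 and 3840.3. Acta2 alone read 397 and 431 against 1478 and 1539, the largest part of that rise, and 3 of the 9 had negative changes. Endothelial genes (1 higher and 1 lower of 11) summed to 3869.7 and 3841 against 4173 and 4168. That rise rested on Eng (1331 and 1194 against 1741 and 1780), and 7 of the 11 had negative changes. Lymphocyte markers were mostly dim (8 of 13), with 0 higher and 1 lower of 5 tested, and summed to 673 and 769 against 531 and 433. Hepatocyte genes (7 of 9 lower) summed to 2893 and 5461 against 366 and 406. All 9 had negative changes, and Alb read 856 and 1738 against 50.3 and 35.7. The ventricle label does not account for such liver-type signal on the non-transgenic arrays. Its source, and its part in the other values compared here, was not tested. In bulk tissue, fewer cells of a type and less RNA per cell cannot be told apart.

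Promoter sequence is shown for 2 of the genes, from RefSeq (build GRCm38.p6). Bnip3 had the smallest p of the 22 and is a well-known target of the hypoxia-inducible factor HIF-1, and Mcl1 is known as a gene that SRF can regulate through a serum response element. The Bnip3 stretch is the 250 bases before the start, chr7:138909507-138909756 on the minus strand, with the hypoxia core motifs ACGTG and GCGTG on either strand in capitals (5 matches, of which 2 overlap on opposite strands in the palindrome). The Mcl1 stretch is chr3:95658623-95658722 on the plus strand, 100 bases that end with the letters in capitals, a match to the CArG box of SRF with 1 mismatch, which runs from base -8 to base 2 around the start. Whether this match is the known serum response element was not tested.
Bnip3: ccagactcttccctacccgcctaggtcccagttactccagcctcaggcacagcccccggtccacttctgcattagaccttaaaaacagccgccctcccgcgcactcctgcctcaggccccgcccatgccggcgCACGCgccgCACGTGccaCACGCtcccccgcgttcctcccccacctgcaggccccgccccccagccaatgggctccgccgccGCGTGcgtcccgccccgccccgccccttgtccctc
Mcl1: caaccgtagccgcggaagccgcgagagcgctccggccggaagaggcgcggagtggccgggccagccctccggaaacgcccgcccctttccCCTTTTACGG

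Windows of 250 bases before to 50 after the start were found for 34 of the 36 genes (42 windows). An exact CArG box stood in 0 of the 42 windows, beside 1.63% of all 32851 windows. With at most 1 mismatch, 5 windows held one (those of Mcl1, Birc3, Bcl2l2, Fas and Pdcd4), beside 21.1% of all windows. A hypoxia core motif stood in 28 of the 42, in 23 genes, beside 43.8% of all windows, which also hold those of non-coding genes and were not matched for base composition. A match describes letters only. None of the 5 genes with a near CArG box passed the test: Fas was dim, and the changes of the other four were 0.14 ± 0.12 (SE) for Mcl1, -0.14 ± 0.21 for Birc3, -0.15 ± 0.22 for Bcl2l2 and -0.06 ± 0.17 for Pdcd4.

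Among the proteins that hold apoptosis back, all 4 listed members of the BCL2 branch were measured, and none passed the test. Mcl1, a short-lived guardian of the mitochondrial membrane, had signals of 544 and 460 without and 578 and 525 with the transgene. Bcl2l1, which encodes BCL-XL, read 366 and 331 against 324 and 334. The groups overlapped for both genes, and the 95% intervals ran from -0.15 to 0.43 for Mcl1 and from -0.36 to 0.20 for Bcl2l1. Bcl2, the founding member of the family, gave 190 and 166 against 178 and 207, and Bcl2l2 (BCL-W) gave 204 and 131 against 140 and 155. For Bcl2l2 the non-transgenic arrays lay on both sides of the transgenic ones, and its change was -0.15 with all arrays but 0.155 without non-transgenic replicate 1. A second tested probe set for Bcl2 gave a change of 0.25 ± 0.24, of the same sign as the first (0.11 ± 0.15). Bag1, a co-chaperone that binds BCL2 and HSP70, read 338 and 360 against 305 and 336, a change of -0.12 ± 0.12 with no overlap but a narrow gap of the closest arrays.

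Of the pore-forming proteins only Bak1 was measured, at 183 and 191 without and 196 and 214 with the transgene. The groups did not overlap, yet the change of 0.12 ± 0.13 was no larger than its error (limma BH-adjusted p = 0.626). The BH3-only proteins, which trigger the route, had negative changes in 3 of 3 tested genes, none past the test. Bcl2l11 (BIM) read 205 and 184 against 191 and 160, which overlapped, and its second tested probe set had a change of 0.03 against -0.14 for the first. Bad, which is switched off by survival kinases, read 108 and 118 against 60.4 and 96.8. Both transgenic arrays were below both non-transgenic ones, by 0.51 ± 0.23 on the log2 scale (limma BH-adjusted p = 0.233), with transgenic replicate 1 well below its partner. The second Bad probe set read 76.5 and 70.9 against 78.3 and 66.1, a change of -0.03 ± 0.19, so the lower value rested on 1 of its 2 probe sets. Bid, cleaved by caspase-8 to link both routes, was dim, at 12.9 and 26.6 against 18.6 and 27.3.

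Bik, a BH3-only protein of the endoplasmic reticulum, had the largest change of the 22 in size and the least agreement between replicates. Its signals were 49.7 and 119 without and 51.1 and 12.9 with the transgene. The lower non-transgenic array and the higher transgenic array were nearly equal, so the groups overlapped. The change was -1.26 ± 0.53 (limma BH-adjusted p = 0.208). Without transgenic replicate 1 it was -1.99 and passed (limma BH-adjusted p = 0.0461), a call that compares a single transgenic array, assumed to vary like the other group.

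Bnip3 came closest to the threshold. It encodes a mitochondrial protein related to the BH3-only group that takes part in cell death and in the removal of mitochondria, and it is induced by low oxygen. Its signals were 366 and 296 without and 502 and 439 with the transgene, or 331 ± 49.5 against 471 ± 44.8 (SD, n = 2 each). Both transgenic arrays were above both non-transgenic ones, a 1.41-fold difference (0.50 ± 0.14 on the log2 scale) with a BH-adjusted limma p of 0.0865. That p was 0.0540 after centring each array on its median and 0.0978 after quantile normalization. Leaving out single arrays gave changes of 0.35 to 0.65, all positive, and none passed. Bnip2, a scaffold protein first found as a BCL2 partner, was measured by a pair of probe sets that disagreed. The brighter gave 187 and 203 against 224 and 230, a change of 0.21 ± 0.13, and the second gave 155 and 153 against 105 and 113, a change of -0.46 ± 0.15. The groups did not overlap on either probe set, in opposite directions, and neither passed (limma BH-adjusted p = 0.370 and 0.114).

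**Figure D2:**
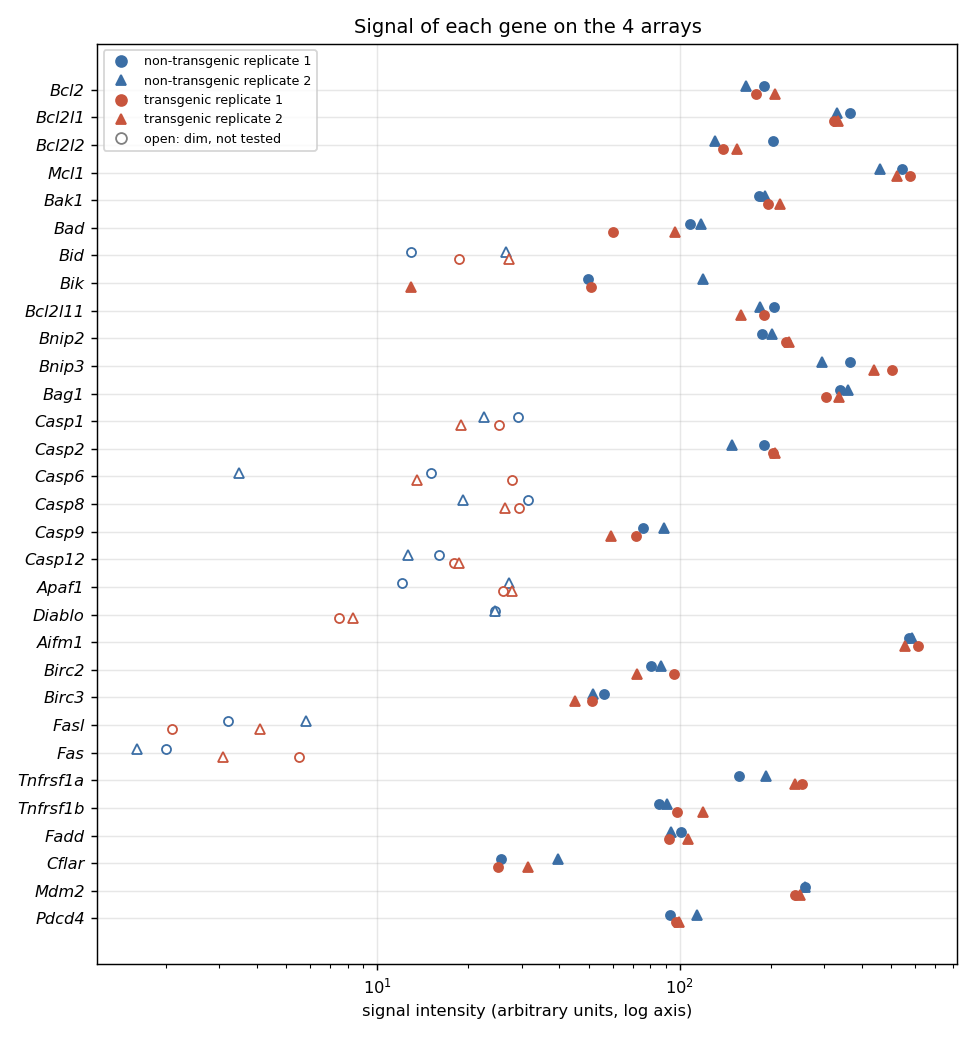
Signal of the 31 measured genes (y axis, ordered by role) on each of the 4 arrays (x axis, arbitrary units, log axis); blue is non-transgenic, red transgenic, circles replicate 1, triangles replicate 2, open symbols genes too dim to be tested. Bnip3 and Tnfrsf1a are among 6 tested genes with both red symbols right of both blue ones. Diablo has both to the left at a signal under 10, and most other tested genes lie close together on all arrays.

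Of the 6 caspases listed, only Casp2 and Casp9 were bright enough to be tested. Casp9, the initiator that APAF1 activates, had 4 tested probe sets, with 75.5 and 88.7 against 71.5 and 59.1 on the brightest. Their changes were -0.30, -0.14, 0.14 and -0.56, with errors of 0.18 to 0.37, and none passed. Casp2, an initiator caspase linked to genotoxic stress, read 190 and 149 against 203 and 206 on its brighter probe set (0.27 ± 0.16). Its second probe set read 76.1 and 50.6 against 39.5 and 42.0 (-0.52 ± 0.25), so again both sets separated the groups in opposite directions. The dim caspases were the inflammatory caspase Casp1 (29.3 and 22.5 against 25.3 and 18.9), the death receptor initiator Casp8 (31.5 and 19.2 against 29.4 and 26.5), the effector Casp6 (15.1 and 3.50 against 27.8 and 13.5) and Casp12 (16.0 and 12.6 against 17.9 and 18.6), which sits at the endoplasmic reticulum. Among these 4 only Casp12 had no overlap between the groups, and at such signals a difference of a few units is near the pseudocount.

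Among the proteins that act after the membrane opens, Aifm1, a flavoprotein of the inner mitochondrial membrane, had 572 and 586 against 616 and 556. Its change of 0.01 ± 0.10, with an interval of -0.23 to 0.26, had the smallest error of the 22. Apaf1, the scaffold of the apoptosome, was dim, with 12.1 and 27.2 against 26.1 and 27.8. Diablo, a mitochondrial protein that relieves the block on caspases, was dim too, but the groups stood apart: 24.6 and 24.6 without and 7.5 and 8.3 with the transgene. With no filter on dim probe sets its change was -0.99 ± 0.255, and it did not pass (limma BH-adjusted p = 0.121 over 12422 probe sets). Of 3 further proteins released from mitochondria, none passed. Htra2, on a probe set with the letter r in its name, gave 920 and 711 against 560 and 690, Endog 52.0 and 62.8 against 43.2 and 49.1, and Cycs, cytochrome c, 466 and 589 against 498 and 440. The arrays separated without overlap for Htra2 and Endog and overlapped for Cycs.

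The inhibitors of apoptosis Birc2 and Birc3, ubiquitin ligases at the TNF receptor complex, did not pass. Birc2 read 80.6 and 86.9 against 95.6 and 72.5 and Birc3 56.4 and 51.7 against 51.2 and 45.0. The change of Birc2 was -0.01 ± 0.20, and that of Birc3 -0.14 ± 0.21; the groups overlapped for Birc2 and not for Birc3. Further probe sets of Birc2, Bcl2, Bcl2l1 and Bcl2l11 were dim, with mean signals of 13.55, 15.8, 7.40 and 2.80.

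On the receptor side, Tnfrsf1a, the main receptor for TNF on most cells, was second to Bnip3 in its p. Its signals were 157 and 193 without and 254 and 240 with the transgene, or 175 ± 25.0 against 247 ± 10.1 (SD, n = 2 each). Both transgenic arrays exceeded both non-transgenic ones, a 1.40-fold difference (0.48 ± 0.15) with a BH-adjusted limma p of 0.104. A second probe set for Tnfrsf1a gave the opposite, 75.9 and 88.8 against 45.8 and 61.4, a change of -0.55 ± 0.22 (limma BH-adjusted p = 0.176). Tnfrsf1b, the TNF receptor of immune and endothelial cells, read 85.4 and 91.0 against 98.1 and 120, a change of 0.27 ± 0.18 with no overlap. Summed macrophage signal was higher on the transgenic arrays, as given above, with 11 of 11 tested markers above 0 in their change and 2 of the 7 dim ones (Fcgr3 and Fcer1g) below 0. The part of the macrophage and endothelial markers in the receptor values was not tested. Fas was near the bottom of the signal range, at 2.0 and 1.6 against 5.5 and 3.1, and an Affymetrix control probe set for it read 24.1 and 21.6 against 25.1 and 21.9. Its ligand Fasl, made by activated lymphocytes, read 3.20 and 5.80 against 2.10 and 4.10, levels too low for a test, and only for Fas did the groups not overlap. Fadd, the adaptor of FAS, read 101 and 93.8 against 92.4 and 106, and Cflar, which blocks caspase-8 there, 25.7 and 39.7 against 25.0 and 31.4. Their groups overlapped, with changes of 0.02 ± 0.17 and -0.15 ± 0.29.

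Mdm2, the ubiquitin ligase that degrades p53 and is itself induced by it, was among the steadiest, at 259 and 260 against 241 and 251. Both transgenic arrays were slightly lower, but the change of -0.07 ± 0.12 did not pass (limma BH-adjusted p = 0.753), and it was 0.005 after median centring. Pdcd4, an inhibitor of translation initiation named for programmed cell death, read 93.2 and 114 against 97.2 and 99.7, with overlap.

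Disagreement between probe sets of the same gene was common in this group. 7 genes had 2 or more tested probe sets, and in 4 of them the brightest and second brightest changed in opposite directions, beside 340 of 909 such genes (37.4%) on the whole array. In 3 of the 7 (Bnip2, Casp2 and Tnfrsf1a) both probe sets also separated the groups without overlap, which held for 80 of the 909 (8.80%). In these 3 genes the dimmer, lower-going probe set had the letter r or f in its name and belonged to one series of probe sets, whose names all begin with the same 3 digits, and the lower Bad probe set came from that series too. Over the array, 382 tested probe sets of the series had a median change of -0.185, with 69.4% below 0, and those with the letter r among them a median of -0.32 (132 probe sets, 79.5% below 0). Probe sets with no letter had a median of 0.004 (6033 probe sets, 49.5% below 0). Affymetrix used the letter r where its probe selection rules were relaxed and f where probes match a family of sequences. The median log2 signal of the r probe sets of that series was 6.96 and 6.84 without and 6.49 and 6.65 with the transgene, while that of probe sets without a letter stayed between 7.12 and 7.17. The part of this shift in the disagreement was not tested. With its probe sets averaged, Bnip2 had a change of -0.13. The averaging did not take effect for Casp2 and Tnfrsf1a, which kept the 0.27 and 0.48 of their brightest probe sets. It therefore cannot show what averaging does to these genes.

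**Figure D3:**
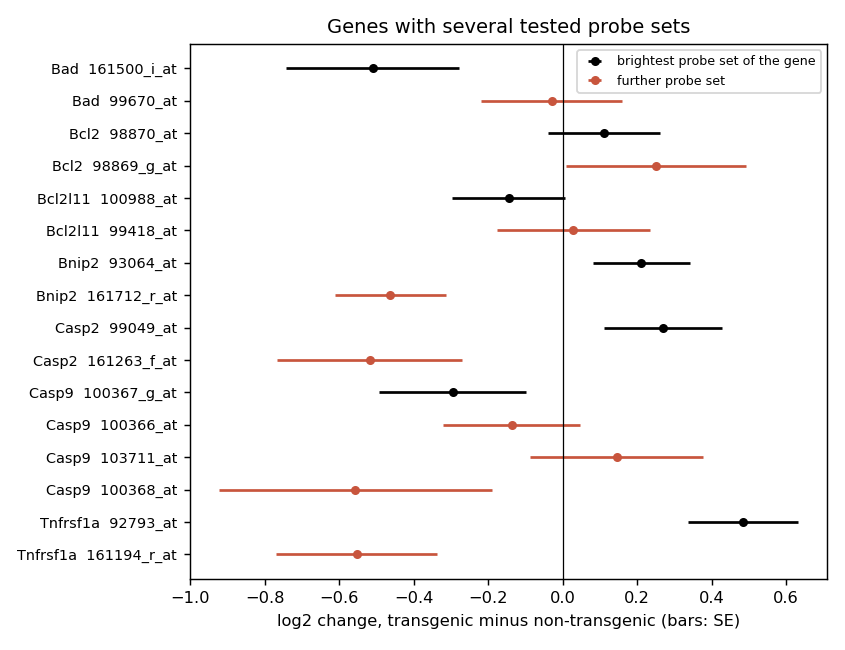
Log2 change, transgenic minus non-transgenic (x axis), with its moderated standard error for every tested probe set of the 7 genes with more than 1 (y axis: gene and probe set name); black marks the brightest probe set of each gene and red the further ones. For Bnip2, Casp2 and Tnfrsf1a the black point lies right of 0 (0.21, 0.27 and 0.48) and the red one left of it (-0.46, -0.52 and -0.55).

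The rest of the apoptosis pathway was read from a list of 71 further genes, of which 50 had a probe set and 38 were tested. 1 was higher, 0 were lower and 37 did not pass, with a median change of -0.12 beside -0.01 over all probe sets. Over all tested probe sets 4.07% were called higher and 3.86% lower. The gene that rose was Dap, death-associated protein, a small protein first found through cell death by interferon gamma. Dap read 398 and 429 without and 833 and 796 with the transgene, a 1.95-fold rise (0.96 ± 0.10, limma BH-adjusted p = 0.00362). Its call held without any 1 of the 4 arrays (limma BH-adjusted p up to 0.0114) and ended without the variance trend (0.0542) and in the ordinary test (0.210). The next by p were Dffa, the inhibitor of the caspase-activated nuclease (411 and 402 against 318 and 289), Tax1bp1, a binding partner of the NF-kB regulator A20 (638 and 712 against 831 and 904), Siva1 (362 and 324 against 271 and 242) and Cidea, a lipid droplet protein (228 and 243 against 170 and 181). The groups did not overlap for any of these 4, and none passed (limma BH-adjusted p = 0.0824 to 0.118). Among all 38 tested the groups did not overlap for 19, 6 higher and 13 lower, beside 55.9% of all tested probe sets.

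Known targets of p53 gave a separate view of a pathway whose central gene is not analysed here. Of 30 listed genes, 17 were tested, 1 was higher, 1 lower and 15 did not pass, with a median change of 0.127. Over all tested probe sets 4.07% were called higher and 3.86% lower. Mdm2 is in this list too. Plk2, a polo-like kinase, rose from 482 and 460 to 643 and 645 (0.45 ± 0.10, limma BH-adjusted p = 0.0408), and the call ended without any 1 of the 4 arrays (0.0785 to 0.151). Sesn1, a stress protein that restrains mTORC1, fell from 601 and 600 to 432 and 364 (-0.59 ± 0.12, limma BH-adjusted p = 0.0313). That call ended without non-transgenic replicate 1 (0.0837), non-transgenic replicate 2 (0.0819) or transgenic replicate 2 (0.110). Both calls ended with no filter (0.0579 for Plk2 and 0.0566 for Sesn1), without the variance trend (0.141 and 0.121) and in the ordinary test (0.210 and 0.301), that of Plk2 with quantile normalization (0.0552) and that of Sesn1 with median centring (0.0578). The next by p were Phlda3, an inhibitor of AKT (114 and 101 against 178 and 159), the cyclins Ccng2 (136 and 105 against 203 and 183) and Ccng1 (690 and 646 against 845 and 829), and the nucleotide reductase subunit Rrm2b (60.5 and 73.1 against 89.7 and 96.1). In all 4 both transgenic arrays exceeded both non-transgenic ones, without passing (limma BH-adjusted p = 0.0632 to 0.215). These 4 were chosen by p. Among the 17 tested targets the groups did not overlap for 11, 6 higher and 5 lower, beside 55.9% of all tested probe sets.

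Hypoxia targets were read because Bnip3 is one of them. Of 28 listed genes, 21 were tested, 4 were higher, 1 lower and 16 did not pass, with a median change of -0.05. Over all tested probe sets 4.07% were called higher and 3.86% lower. Of the 21 changes, 9 were positive and 12 negative. The glucose transporter Slc2a1 rose from 39.9 and 29.0 to 89.1 and 85.6, and P4ha1, a collagen prolyl hydroxylase subunit, from 85.3 and 97.6 to 180 and 185. The glycolytic enzymes Hk1 (544 and 750 to 1360.4 and 1158) and Pgk1 (1159 and 1469 to 2056 and 2138) rose as well, while the aldolase Aldoa fell from 8648 and 8891 to 7109.8 and 7247. The calls of Hk1 and Pgk1 held without any 1 array (limma BH-adjusted p up to 0.0352 and 0.0355). All 5 calls ended without the variance trend (0.0605 to 0.255) and in the ordinary two-sample test (0.222 to 0.330), and those of Pgk1 (0.0524), Slc2a1 (0.0774) and Aldoa (0.122) with no filter. Aldoa also lost its call with median centring (0.0726) and quantile normalization (0.435). Slc2a1 lost its call without non-transgenic replicate 2 (0.0604), transgenic replicate 1 (0.122) or transgenic replicate 2 (0.0897), P4ha1 without either transgenic array (0.0597 and 0.0560), and Aldoa without any 1 of the 4 (0.0579 to 0.108). Hk2 (1529 and 1594 against 1391 and 1253), Higd1a (155 and 152 against 125 and 98.5) and Hmox1 (291 and 264 against 345 and 337) had no overlap and did not pass (limma BH-adjusted p = 0.156 to 0.196). Among the 21 tested targets the groups did not overlap for 17, 7 higher and 10 lower, beside 55.9% of all tested probe sets.

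**Figure D4:**
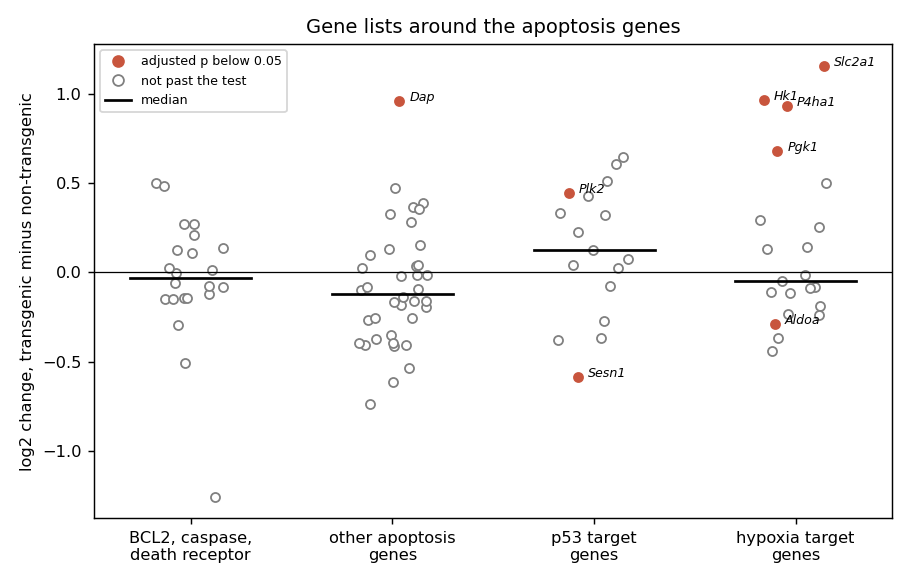
Log2 change, transgenic minus non-transgenic (y axis), of each tested gene in 4 lists (x axis): the 22 genes of the BCL2, caspase and death receptor group, 38 other apoptosis genes, 17 p53 targets and 21 hypoxia targets; filled red points passed an adjusted p of 0.05, open points did not, and the line is the median. No point of the first list is filled, against 1, 2 and 5 in the others; points are spread sideways only for legibility.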

How the data were processed

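Per the labels' protocols, total RNA was column-purified and labelled with biotin by the Affymetrix procedure, with 1 array per sample. The deposited values are signal intensities on a linear scale, 1 per probe set; the software and its scaling were not given in the sources used here. Trimmed array means were alike (150.0 to 150.3), so changes common to most transcripts would be hidden. Of 12488 probe sets, 66 controls were left out. Symbols came from the platform annotation (10833 probe sets with 1 symbol, 396 with several, 1193 unlisted), checked by gene number against RefSeq. Values became log2(value + 9), the lowest 40% of probe sets by mean over all arrays (a signal of about 30.0) were left out, and 7453 were fitted with lmFit and eBayes (trend) in limma 3.58.1 under R 4.3.3 (two-sided tests). Benjamini-Hochberg adjustment ran over all of them. Errors with log2 changes are moderated standard errors, with signals SD. The genes, lists and tests were chosen with earlier results of these data known. Named were all listed genes, and from each further list those past the threshold and up to 4 more with the smallest p. Alternatives were other pseudocounts, scalings, filters, variance models, thresholds, averaging of probe sets, a replicate block and leaving out each array. The averaging was faulty. Casp2 and Tnfrsf1a, among others, kept the value of their brightest probe set, and rows of other genes entered the mean of Bcl2l11.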

Additional observations from a re-analysis of the deposited data

How the results depend on the processing

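For the 22 genes the count of calls was 0 in both directions under every alternative but 3: at an adjusted p threshold of 0.1 and with the replicate number as a block 1 was higher (Bnip3, adjusted p = 0.0436 with the block in limma with Benjamini-Hochberg adjustment), and leaving out single arrays gave 0 to 1 lower (Bik). Same-numbered arrays did not deviate together (correlation -0.06), so they share only a number. The adjusted p ranged from 0.0436 to 0.385 for Bnip3 and from 0.0727 to 0.350 for Tnfrsf1a in limma and the ordinary test. Over all probe sets, 397 were higher and 197 lower with median centring, 172 were higher and 157 lower with no filter, 44 and 34 without the variance trend, 0 and 0 in the ordinary test (1175 at an unadjusted p below 0.05) and 477 and 484 at 0.1; leaving out single arrays gave 125 to 232 higher and 158 to 191 lower. Among other apoptosis genes 0 were higher without the trend or in the ordinary test, 2 higher and 1 lower at 0.1, and 1 to 2 higher with an array left out. Among p53 targets, 3 were higher with median centring or with the lowest 60% left out, 0 with quantile normalization, no filter, no trend, the ordinary test or any array left out, 4 at 0.1 and 2 with the replicate block; 0 were lower with median centring, no filter, no trend or the ordinary test and 0 to 1 with an array left out. Among hypoxia targets, 2 were higher with no filter, 0 without the trend or in the ordinary test and 2 to 4 with an array left out; 0 were lower with median centring, quantile normalization, no filter, no trend, the ordinary test or any array left out. Median centring moved the median change of all probe sets from -0.009 to 0.071. Changes that turned sign were small: Birc2 0.074, Pdcd4 0.019 and Mdm2 0.005 with median centring, Birc2 0.009 and Aifm1 -0.032 with quantile normalization, and Bnip2 -0.126 with probe sets averaged. Casp2 (0.27) and Tnfrsf1a (0.484) kept the value of their brightest probe set under averaging. Bcl2l11 got -0.243 there, outside the range of its 3 probe sets (-0.18 to 0.03), so rows of other genes entered its mean. That setting therefore did not test whether the sign or call of these genes changes. Its count of 0 calls is no check on the main result. With single arrays left out, ranges crossed 0 for Bcl2l2 (-0.448 to 0.155), Fadd (-0.07 to 0.114), Birc2 (-0.186 to 0.174), Cflar (-0.394 to 0.095), Pdcd4 (-0.194 to 0.072) and Aifm1 (-0.059 to 0.087). The cause of these changes was not tested. With 2 arrays a group, their number limits the precision.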
